A study of Mus musculus with 6 samples.

Results

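Imprinted growth genes are genes read mainly from one parental copy and known from mouse genetics to set the size of the embryo. The 10 genes described here are Igf2, Dlk1, Peg3, Mest and Plagl1, which are expressed from the paternal copy, and H19, Igf2r, Cdkn1c, Meg3 and Grb10, which in most tissues are expressed from the maternal copy. Their probe sets were taken by rule, as every probe set whose platform annotation gives 1 gene symbol that is one of these names. That gave 30 of 45037 non-control probe sets, for 9 of the 10 genes and of 18193 genes on the array. The annotation gives H19 no probe set of its own, and H19 is not analysed here. Of the 30 probe sets, 26 passed the filter on dim signals and were tested, and 4 lay below it.

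Paternally expressed members mostly favour growth. Igf2 encodes a fetal growth factor, Igf2r a receptor that carries IGF2 to the lysosome, and Cdkn1c the cyclin-dependent kinase inhibitor p57, which holds cells out of the cycle. Dlk1 and Meg3 lie side by side in one imprinted domain, as do Igf2 and H19, and Plagl1 encodes a zinc finger protein that acts on several other imprinted genes. The arrays measure total RNA of a gene and do not tell the parental copies apart.

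The samples were whole mouse kidneys at embryonic day 12.5. The knockout group (3 arrays) carried a beta-catenin gene (Ctnnb1) with loxP sites around exons 2 to 6 together with Hoxb7-Cre,Gfp, a transgene in which Hoxb7 sequences drive a recombinase and green fluorescent protein in the ureteric bud, the future collecting duct tree. The normal group (3 arrays) is given in the labels only as normal kidneys of the same day, with no strain or transgene named. Dissected kidneys were sorted at random into 3 vials a group, so an array may hold several animals, the number of animals is not given, and p-values measure the spread between vials. The labels conflict, since the description of each knockout sample calls it normal where its title and source name do not, and every direction below follows the titles.

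Signals are linear MAS5 intensities. Array medians ran from 25.1 to 31.4 in knockout and from 24.9 to 32.1 in normal arrays. The brightest Ctnnb1 probe set read 6586 to 6779 in knockout and 5707 to 6760 in normal arrays, a log2 difference of 0.09 (SE 0.08; limma adjusted p = 0.695), so the targeted gene does not check the labels. Where these probes lie relative to the deleted exons is not analysed here. Summed signals of 18 skeletal muscle markers (14 of them above the filter level) were 1760, 9219 and 773 in knockout replicates 1 to 3 and 605 to 735 in normal arrays. The sum of 12 chromaffin and sympathetic markers (11 above the filter level) was 1671, 959.8 and 553 in knockout replicates 1 to 3 and 2366, 574 and 758 in normal replicates 1 to 3. The muscle sum was highest in knockout replicate 2, and in knockout replicate 3 it was above the normal arrays but close to them. All 14 tested muscle genes were higher in knockout kidneys by the log2 difference, with a median of 1.83, against 49.4% of all genes. Chrna1 had a normal mean of 12.1, below the filter level of 14.7, so it was tested only through the knockout arrays. In knockout replicate 3 Myh3 (21.9) lay below every normal array. The count of 14 is therefore not read as a result. An unadjusted limma p under 0.05 was seen for 7 of the 14, against 11.7% of all genes. After adjustment 0 passed, against 0.602%. The groups did not overlap for 2 of the 14, against 19.3% of all genes. Normal replicate 1 and knockout replicate 1 were highest in chromaffin genes. Defining nephron progenitor, stromal and ureteric markers were present, with 11 of 11, 12 of 12 and 12 of 13 above the filter level and Hoxb7 the one below it.

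Upstream sequences of the members were read from RefSeq (build GRCm38.p6) as windows of 300 bases, from 250 bases before an annotated start to 50 after it, and 8 of the 10 genes had one, in 15 windows. The windows shown are Dlk1 and Meg3, because Dlk1 and some Meg3 probe sets varied together across arrays, and Peg3 because it holds a Plagl1 site. Capitals mark the cAMP response element TGACGTCA (Meg3 and Peg3), the TATA box TATAAA with the overlapping copy on the other strand (Meg3), and the Plagl1 site GGGGCCCC (Peg3).
Dlk1, chr12:109452573-109452872, plus strand: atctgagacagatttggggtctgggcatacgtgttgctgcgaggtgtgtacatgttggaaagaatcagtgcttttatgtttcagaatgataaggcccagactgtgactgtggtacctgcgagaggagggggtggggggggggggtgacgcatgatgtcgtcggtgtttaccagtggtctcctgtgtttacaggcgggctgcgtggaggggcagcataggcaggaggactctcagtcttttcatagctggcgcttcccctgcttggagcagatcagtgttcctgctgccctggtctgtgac
Meg3, chr12:109540746-109541045, plus strand: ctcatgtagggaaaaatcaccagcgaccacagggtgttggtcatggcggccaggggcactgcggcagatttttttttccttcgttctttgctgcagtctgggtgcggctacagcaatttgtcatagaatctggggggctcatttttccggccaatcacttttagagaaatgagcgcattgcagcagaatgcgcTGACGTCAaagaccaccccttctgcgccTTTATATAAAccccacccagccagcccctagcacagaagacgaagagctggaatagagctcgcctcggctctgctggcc
Peg3, chr7:6730370-6730669, minus strand: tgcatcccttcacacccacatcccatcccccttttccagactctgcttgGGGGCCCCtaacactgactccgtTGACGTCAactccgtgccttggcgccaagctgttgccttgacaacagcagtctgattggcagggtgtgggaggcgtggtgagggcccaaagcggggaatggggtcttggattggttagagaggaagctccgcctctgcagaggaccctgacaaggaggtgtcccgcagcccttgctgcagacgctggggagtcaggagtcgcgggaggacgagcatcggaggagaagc

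On either strand, TGACGTCA was found in 2 of the 15 member windows, those of Meg3 and Peg3 shown above, and in 1.79% of all 32851 windows in the table. GGGGCCCC was in 1 member window (Peg3) and 1.08% of all windows. TATAAA was in 1 member window (Meg3) and 13.6% of all. The GC box GGGCGG was in 8 member windows, of Mest, Igf2, Plagl1, Grb10 and Igf2r, and 35.7% of all. Mest windows starting at 30737800 and 30737803 nearly coincide, so the 8 are not independent. The letters of the TCF/LEF core, the sequence read by the nuclear partners of beta-catenin, were in no member window as CTTTGAT (3.73% of all windows) or as CTTTGAA (5.14%). The member windows highest in G and C were Grb10 at its first start (80.0% with 45 CpG), Plagl1 (70.7% with 26) and Igf2r (70.7% with 34). Medians over all windows were 52.7% and 7. Lower member windows included the second of Grb10 (52.3% with 9), the first of Igf2 (52.3% with 2) and the second of Meg3 (50.3% with 1). The Dlk1 window had 55.7% with 9 CpG. These matches describe letters only.

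No tested member probe set passed the test between knockout and normal kidneys. In limma with Benjamini-Hochberg adjustment over all 27022 tested probe sets, 0 of 26 passed an adjusted p of 0.05, where 0.581% of all probe sets did, and the smallest member adjusted p was 0.336. At an unadjusted p under 0.05 the count was 1 of 26, the Meg3 probe set 1452905_at, against 11.5% of all probe sets. In 0 of 26 did the knockout arrays lie entirely above or below the normal arrays, as they did for 17.9% of all probe sets. By the brightest probe set of each gene, 5 of 9 genes had a positive difference and 4 a negative one, with a median of 0.03 on the log2 scale, while 49.4% of 12464 genes were positive with a median of -0.0029. In whole organs a smaller share of a cell type and less RNA per cell cannot be told apart.

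**Figure D1:**
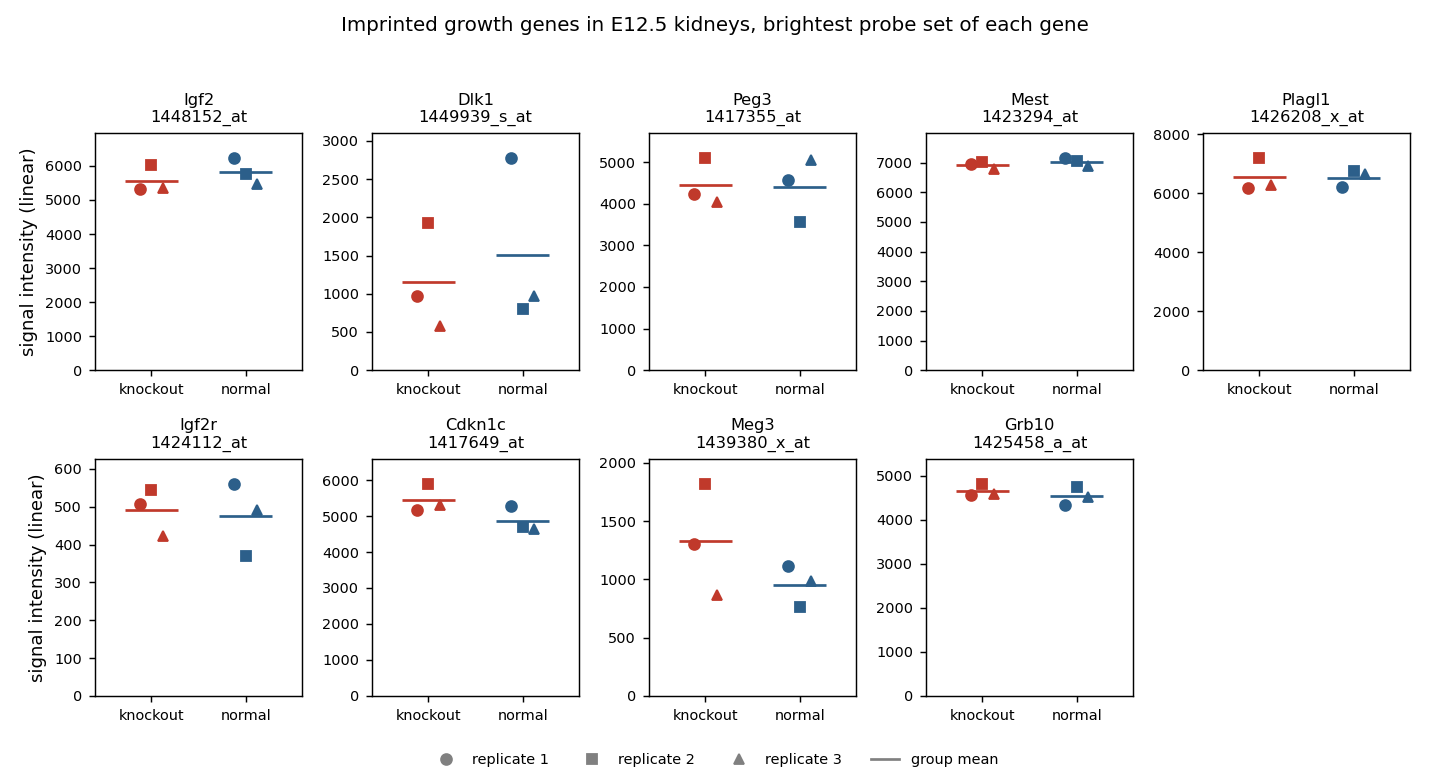
Linear signal intensity of the brightest probe set of each of the 9 measured genes, with knockout arrays left of normal arrays, a marker shape for each replicate number and a line at the group mean. Mest, Grb10, Plagl1 and Igf2 stay within a narrow band on all 6 arrays, Dlk1 ranges from 579 to 2771, and the groups overlap for every gene.

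Among the paternally expressed genes, Igf2 read 5321, 6015 and 5355 in knockout replicates 1 to 3, against 6219, 5771 and 5461 in normal replicates 1 to 3. The groups overlapped, with normal replicate 1 the highest, and the log2 difference was -0.06 (SE 0.08; limma adjusted p = 0.791). Its 95% interval, from -0.25 to 0.12, spans folds of 0.842 to 1.09. A second, dim Igf2 probe set (1415931_at) read 118, 131 and 96.8 in knockout and 145, 60.1 and 114 in normal replicates, a difference of 0.20 (SE 0.30).

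Mest, which encodes an enzyme of the alpha/beta hydrolase fold found in embryonic mesoderm, was the steadiest member. It read 6959.7, 7008 and 6799 in knockout replicates 1 to 3 and 7142, 7041 and 6880.3 in normal replicates 1 to 3. The highest array was 1.05 times the lowest, and the SD over the 6 arrays, 0.025 on the log2 scale, compares with a median of 0.12 in tested probe sets with a mean signal above 834. The knockout minus normal difference was -0.02 (SE 0.06; limma adjusted p = 0.923), with an interval from -0.16 to 0.12.

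Plagl1 varied more, with an SD of 0.085 on the log2 scale and a highest array 1.16 times the lowest. Its brightest probe set (1426208_x_at) has a suffix that marks probes that can match other sequences, so its level may not be that of Plagl1 alone. This probe set read 6166, 7176 and 6277 in knockout replicates 1 to 3 and 6213, 6741 and 6637 in normal replicates 1 to 3, a difference of -0.00038 (SE 0.08; limma adjusted p = 1.00). The interval ran from -0.18 to 0.18, folds of 0.881 to 1.13. The dimmer 1450533_a_at read 227, 311 and 234 in knockout and 469, 239.5 and 282 in normal replicates, and its difference of -0.31 (SE 0.24; limma adjusted p = 0.63) came with normal replicate 1 well above the other 5 arrays. The remaining Plagl1 probe set (1438588_at) lay below the filter level, at 23.4, 6.6 and 5.5 in knockout and 34.9, 2.2 and 21.3 in normal replicates.

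Peg3, a zinc finger gene tied to growth and maternal care in mice, had 3 tested probe sets, with differences of 0.03 (SE 0.14) for 1417355_at, 0.06 (SE 0.07) for 1433924_at and 0.01 (SE 0.08) for 1417356_at. The brightest (1417355_at) read 4243, 5089 and 4043 in knockout replicates 1 to 3 and 4563, 3558 and 5064 in normal replicates 1 to 3. The probe set 1433924_at was tighter, at 4190.4, 4598 and 4541 in knockout and 4093, 4441 and 4277 in normal replicates, with an interval of -0.11 to 0.22. Its other probe sets, 1447731_at and 1447732_x_at, read at most 9.0 on any array and were not tested.

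Dlk1, a transmembrane relative of the Notch ligands, was the least even of the genes by brightest probe set. Probe set 1449939_s_at read 967, 1923 and 579 in knockout replicates 1 to 3 and 2771, 796 and 969 in normal replicates 1 to 3. Normal replicate 1 and knockout replicate 2 were the high arrays, and the highest was 4.78 times the lowest. The difference between the groups, -0.33 (SE 0.51; limma adjusted p = 0.832), had an interval from -1.48 to 0.82, so neither a loss to 0.359 nor a gain to 1.76 times lay outside it. Without normal replicate 1 the difference was 0.22, without knockout replicate 3 it was 0.08, and with any other array left out it lay between -0.78 and -0.29. The second Dlk1 probe set (1442724_at) was below the filter level, with its highest signals, 27.4 and 26.3, again in knockout replicate 2 and normal replicate 1.

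Among the maternally expressed genes, Cdkn1c read 5155, 5888 and 5298 in knockout replicates 1 to 3 and 5291, 4685 and 4648 in normal replicates 1 to 3. Knockout replicate 1 lay below normal replicate 1, so the groups overlapped, and the difference of 0.16 (SE 0.08; limma adjusted p = 0.498) had an interval from -0.03 to 0.35, folds of 0.98 to 1.27.

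Igf2r read 507.5, 544 and 423 in knockout replicates 1 to 3 and 559.8, 371 and 492 in normal replicates 1 to 3 by its brightest probe set, a difference of 0.06 (SE 0.16; limma adjusted p = 0.902). Its other probe set (1424111_at) read 339, 348 and 286 in knockout and 274, 318 and 248 in normal replicates, a difference of 0.22 (SE 0.13; limma adjusted p = 0.552).

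Grb10, an adaptor that dampens insulin and IGF receptor signals, read 4570.3, 4813 and 4599 in knockout replicates 1 to 3 and 4344, 4752 and 4516 in normal replicates 1 to 3 by its brightest probe set. The difference was 0.04 (SE 0.07; limma adjusted p = 0.855), with an interval from -0.12 to 0.20. Of its dimmer probe sets, 1425457_a_at was at 0.03 (SE 0.18) and 1430164_a_at at -0.31 (SE 0.26).

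Grouped by parent of origin, the differences of the brightest probe sets were positive for 1 of 5 paternally expressed genes (median -0.02) and for 4 of 4 maternally expressed genes (median 0.11). No gene in either group passed, and the signs of Igf2, Dlk1, Peg3, Mest, Plagl1, Igf2r and Grb10 each turned under at least 1 other way of processing or with an array left out.

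**Figure D2:**
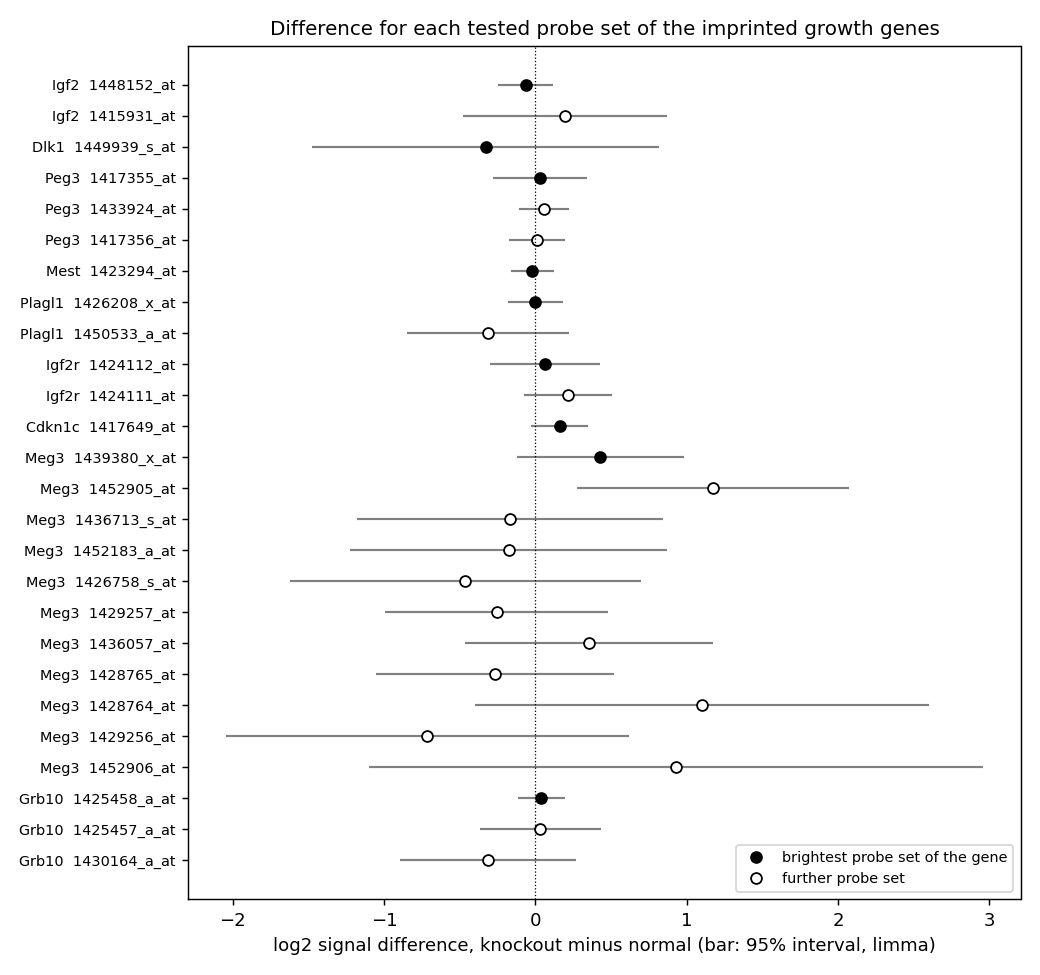
Log2 signal difference, knockout minus normal, with its 95% limma interval, for the 26 tested probe sets, filled points marking the brightest of each gene. By brightest probe set, intervals are narrowest for Mest, Grb10, Plagl1 and Igf2 and widest for Dlk1, dimmer probe sets of Igf2, Plagl1 and Grb10 have wide ones too, and 1452905_at of Meg3 is the single probe set whose interval lies above 0.

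Meg3, a long non-coding RNA, was measured by 11 probe sets, all above the filter level, and they disagreed in direction. Positive differences were seen for 5 and negative ones for 6, a count that includes dim probe sets. They ran from -0.71 (SE 0.59) for the dim 1429256_at to 1.17 (SE 0.40) for 1452905_at. Besides those described below, 1436713_s_at was at -0.17 (SE 0.45), 1426758_s_at at -0.46 (SE 0.51), 1429257_at at -0.26 (SE 0.33) and 1428765_at at -0.27 (SE 0.35). On the positive side, 1436057_at was at 0.35 (SE 0.36), 1428764_at at 1.10 (SE 0.66) and 1452906_at at 0.93 (SE 0.90). Probe sets 1428764_at, 1429256_at and 1452906_at were dim, at 4.6 to 39, 7.2 to 41.1 and 3.5 to 52.9, with single arrays below the filter level of 14.7. No direction is read from these. The mean log2 signal of 1452906_at in normal arrays lay below the filter level, so it was tested only through the knockout arrays. Probe sets 1429257_at, 1436057_at and 1428765_at read at most 78.7 on any array. The brighter ones still differed in sign, with 1439380_x_at and 1452905_at positive and 1436713_s_at, 1452183_a_at and 1426758_s_at negative. The brightest (1439380_x_at, whose suffix marks probes that can match other sequences) read 1301, 1818 and 864 in knockout replicates 1 to 3 and 1114, 761 and 986 in normal replicates 1 to 3. The groups overlapped, at a difference of 0.43 (SE 0.24; limma adjusted p = 0.534).

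Probe set 1452183_a_at of Meg3 read 423, 702 and 231 in knockout replicates 1 to 3 and 858, 260.4 and 443 in normal replicates 1 to 3, a difference of -0.18 (SE 0.46; limma adjusted p = 0.908). Its high arrays were normal replicate 1 and knockout replicate 2, the same as for Dlk1. Across the 6 arrays its log2 signal had a Pearson r of 0.97 with Dlk1, and 1426758_s_at had 0.98, while the range over the 11 Meg3 probe sets was 0.36 to 0.98. Mirg, a non-coding RNA host of microRNAs in the same domain, read 72.9, 113 and 47.6 in knockout replicates 1 to 3 and 134, 44.4 and 72.2 in normal replicates 1 to 3. Its order of arrays was close to that of Dlk1, and it was one of the 3 genes of 12464 whose centred log2 profile lay nearest to Dlk1 by Euclidean distance over the 6 arrays (0.67), after Adam33 (0.48) and Ptprv (0.64). The nearest to the brightest Igf2 probe set were Uckl1 (0.059), Kidins220 (0.065) and Mrpl54 (0.067), none of them imprinted genes of the lists used here.

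The high Dlk1 arrays were also high in some of the marker sums. Normal replicate 1 had the highest chromaffin sum (2366) and knockout replicate 2 the highest muscle sum (9219), given above. Both were the highest 2 for the summed renal stroma markers, at 21945 in knockout replicate 2 and 22249 in normal replicate 1 against 18799 to 20292 on the other 4 arrays. The stromal genes did not move together. In normal replicate 1 the collagen genes Col1a1 (2959) and Col3a1 (5751) were at their highest of the 6 arrays, and Meis2 (1701) at its lowest. Over the 6 arrays the log2 signal of Dlk1 had r = 0.76 with the chromaffin sum, 0.36 with the muscle sum, 0.78 with the stromal sum and 0.83 with the endothelial sum. It had r = -0.70 with the erythroid sum, -0.52 with the nephron progenitor sum and -0.42 with the ureteric sum, and the remaining sums lay between 0.0019 and 0.48. The erythroid sum was highest in knockout replicate 3 (22213) and normal replicate 2 (18216), the lowest arrays for Dlk1. These values share the same libraries. The part of these cell types in the level of Dlk1 and Meg3 was not tested. Of the adrenal cortex markers 3 of 9 were above the filter level, and Cyp11a1, Cyp17a1, Cyp21a1, Hsd3b1 and Nr5a1 were below it, with sums of 294 to 308 in knockout and 308 to 329.6 in normal arrays.

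**Figure D3:**
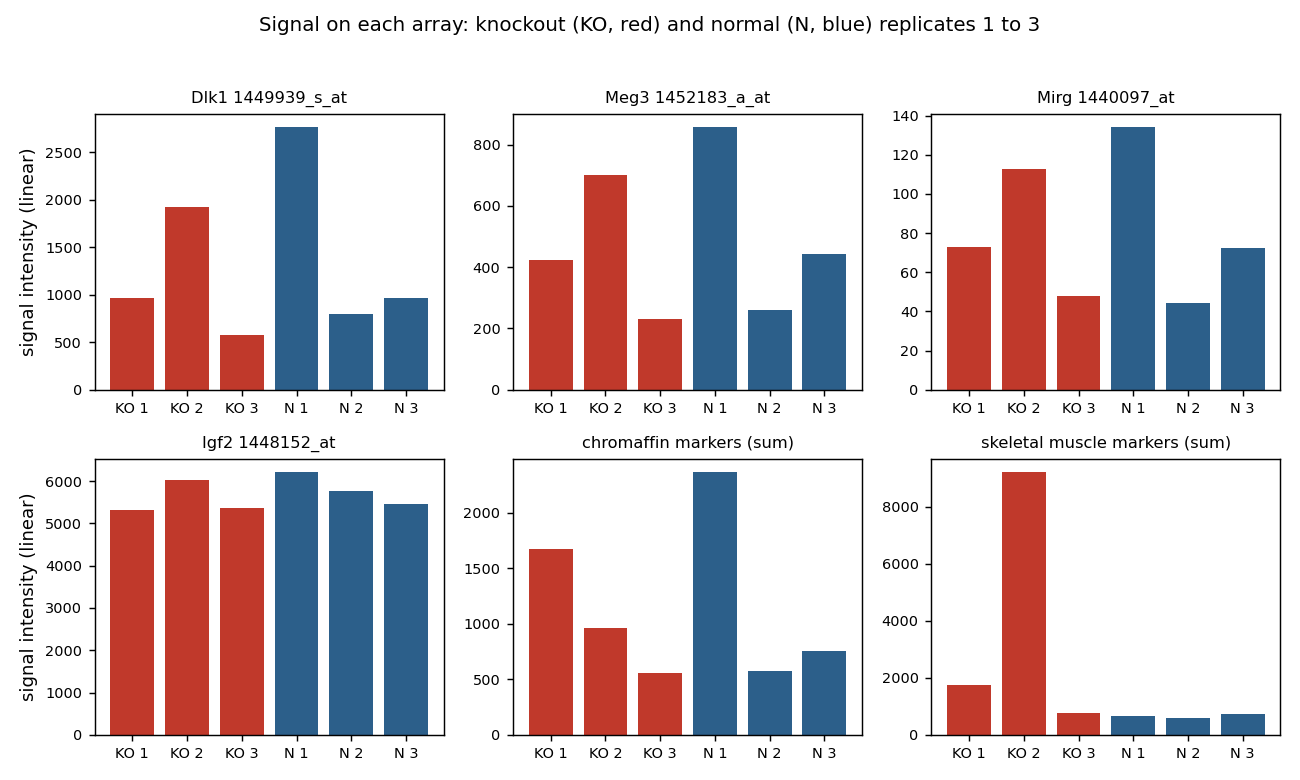
Linear signal on each array for Dlk1, Meg3 (1452183_a_at), Mirg and Igf2, and the summed signals of the chromaffin and skeletal muscle markers, with knockout replicates (KO, red) left of normal replicates (N, blue). Dlk1, Meg3 and Mirg peak in knockout replicate 2 and normal replicate 1. Igf2 is highest on the same arrays but varies by only 1.17 times between its highest and lowest array.

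Probe set 1452905_at of Meg3 departed from that pattern. It read 879, 1298 and 605 in knockout replicates 1 to 3 and 668, 210.0 and 428 in normal replicates 1 to 3. The groups overlapped, since knockout replicate 3 lay below normal replicate 1, and the difference of 1.17 (SE 0.40), a fold of 2.26, did not pass (unadjusted p = 0.016, limma adjusted p = 0.336). When each array was scaled to the same median it passed (limma adjusted p = 0.0034) at nearly the same difference, 1.18. There the variance prior of limma had 41.8 degrees of freedom, against 4.95 in the reported test, and the probe set's own SD of 0.55 on the log2 scale was moderated to 0.31, against 0.71 moderated to 0.485. Without normal replicate 2 the difference was 0.72. Over the alternatives tried the adjusted p ranged from 0.0034 to 0.7. Across the 6 arrays its log2 signal had r = 0.98 with the summed macrophage markers, 0.77 with the muscle markers and -0.95 with the nephron progenitor markers, and their part in it was not tested.

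Set against 1452183_a_at on the same array, a comparison chosen after the values were seen, the signal of 1452905_at was 2.08, 1.85 and 2.62 times as high in knockout replicates 1 to 3 and 0.778, 0.806 and 0.968 times in normal replicates 1 to 3. The groups did not overlap. The mean log2 ratio was 1.11 ± 0.26 in knockout and -0.24 ± 0.17 in normal arrays (SD, n = 3 each), a difference of 1.35 (exact two-sided permutation p = 0.1, the smallest that 3 against 3 arrays allow). The ratio was computed under 8 alternatives, 6 of them leaving out 1 array, and stayed between 1.21 and 1.46. Of the 10 other Meg3 probe sets compared with 1452183_a_at in this way, 1452905_at was the 1 without overlap. Such ratios often separated the groups, as 15.4% of 10561 such ratios did across the array when each gene's brightest probe set was the denominator. With that denominator the Meg3 ratio was also higher in all knockout arrays, by 0.74, and of all 10561 ratios 1.99% separated the groups by at least 1 on the log2 scale, a size the Meg3 ratio did not reach. With that denominator 3 further Meg3 probe sets separated the groups in the other direction, lower in all knockout arrays, 1426758_s_at at -0.89, 1429257_at at -0.69 and 1428765_at at -0.70, so how many stand apart depends on the denominator.

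Rian, another long non-coding RNA of the domain, also had probe sets that differed from each other, a comparison chosen after the values were seen. Its brightest probe set (1452899_at) read 128, 276 and 139.5 in knockout replicates 1 to 3 and 226, 113 and 145 in normal replicates 1 to 3, a difference of 0.13 (SE 0.33). Probe set 1427580_a_at read 97, 140.0 and 74.6 in knockout and 72.0, 23.8 and 54.5 in normal replicates. There the knockout arrays all lay above the normal ones, at a difference of 1.15 (SE 0.40; limma adjusted p = 0.347). The groups did not overlap, in either direction, for 17.9% of all probe sets. Probe set 1428055_at read 51.8, 49.1 and 34.7 in knockout and 32.4, 3.5 and 28.6 in normal replicates, again without overlap, at 1.59 (SE 0.75; limma adjusted p = 0.459). It was dim, with normal replicate 2 below the filter level of 14.7, and no direction is read from it. Neither of these probe sets passed, though both did with median scaling and its stronger variance prior (limma adjusted p = 0.0092 for 1427580_a_at and 0.0448 for 1428055_at). Without normal replicate 2 their differences were 0.68 and 0.55. The last Rian probe set, 1440001_at, was at 0.24 (SE 0.35). Relative to 1452899_at, the signal of 1427580_a_at was 0.76, 0.507 and 0.535 times as high in the knockout replicates, against 0.318, 0.21 and 0.375 times in the normal ones. That log2 ratio was -0.76 ± 0.32 in knockout and -1.77 ± 0.43 in normal arrays (SD, n = 3 each; exact two-sided permutation p = 0.1, the smallest possible here). The difference was 1.01. Of all 10561 ratios to the brightest probe set 15.4% separated the groups, and 1.99% did so by at least 1. The ratios of 1428055_at and 1440001_at overlapped. Macrophage markers, 13 of 13 above the filter level, summed to 1266, 1839 and 1288 in knockout replicates 1 to 3 and to 1306, 589.6 and 969 in normal replicates 1 to 3, and their part in the signal of these probe sets was not tested.

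**Figure D4:**
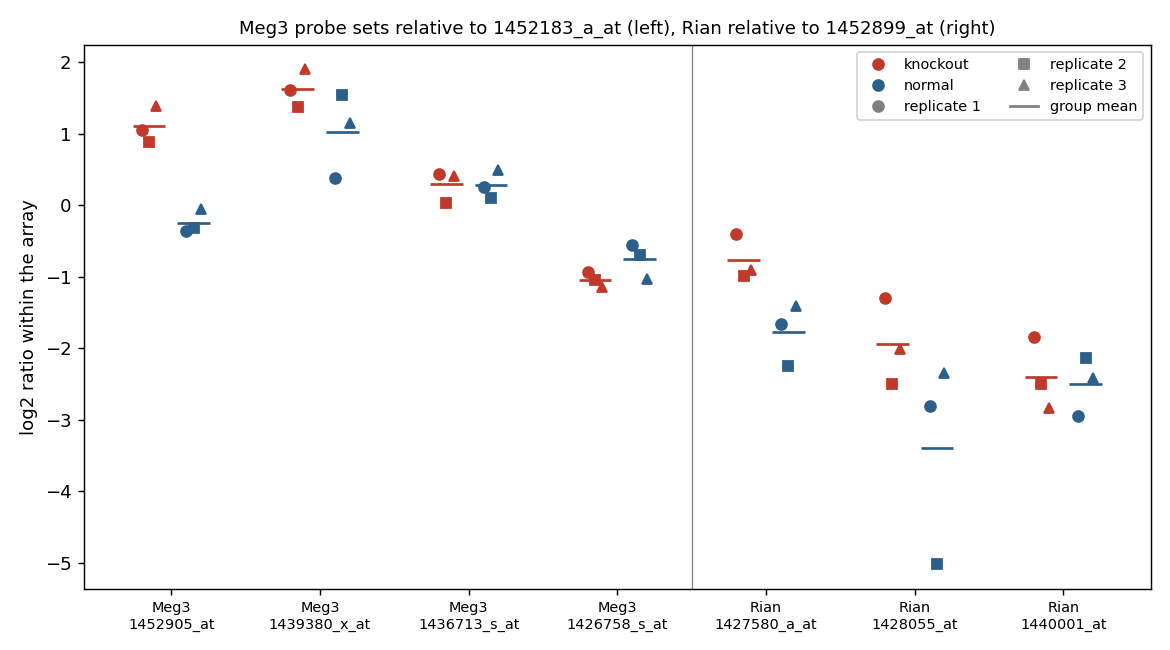
Log2 ratio of single Meg3 probe sets to 1452183_a_at and of Rian probe sets to 1452899_at on the same array, knockout (red) left of normal (blue), with a marker shape for each replicate and a line at the group mean. The knockout arrays lie above every normal array for Meg3 1452905_at and Rian 1427580_a_at and overlap with them for the other probe sets shown.

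Pairs of members from one domain were compared as a description over the 6 arrays, with no test. By brightest probe set the r was 0.62 for Dlk1 with Meg3 and 0.38 for Igf2 with Cdkn1c, which lie in neighbouring domains of one chromosome. The highest of the 36 pairs was Igf2 with Dlk1 at 0.85, and the lowest Igf2r with Grb10 at -0.42. The arrays share scaling and tissue content, and nothing of shared control is read from them.

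The other imprinted genes fixed for comparison gave no call either. Of 64 listed, 46 were tested, and 0 passed (limma, Benjamini-Hochberg), against 0.602% of 12464 genes, with 3 at an unadjusted p under 0.05, all negative, against 11.7% of genes. In all 20 were positive and 26 negative, with a median of -0.03. The smallest p belonged to Kcnq1ot1, the long antisense RNA of the domain that also holds Cdkn1c, which read 342, 219.6 and 156 in knockout replicates 1 to 3 and 461, 328 and 377 in normal replicates 1 to 3. The groups overlapped by a narrow margin, and the difference was -0.76 (SE 0.26; limma adjusted p = 0.334), with another of its probe sets at -0.67 and 2 dimmer ones at 0.01 and -0.90. Without knockout replicate 3 it was -0.49. Kcnq1, the potassium channel gene it overlaps, is one of the 3 and read 5.9, 20.3 and 8.4 in knockout and 17.6, 31.4 and 31.6 in normal replicates. Its knockout mean of 11.5 lay below the filter level of 14.7, so it was tested only through the normal arrays, and no difference is read from it. Inpp5f, a phosphoinositide phosphatase, was at 202 ± 10.1 in knockout and 254 ± 26.2 in normal kidneys (mean ± SD, n = 3 each), a difference of -0.33 (SE 0.12; limma adjusted p = 0.37), and its other probe set at 0.02. Sfmbt2, a Polycomb group gene, was at -0.42 (SE 0.19; limma adjusted p = 0.438).

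The insulin-like growth factor axis list held the ligands, receptors, binding proteins and kinases around Igf2. Of 34 listed genes 28 were tested and 0 passed, against 0.602% of all genes. Differences were positive for 13 and negative for 15, with a median of -0.06. At an unadjusted limma p under 0.05 there were 4, all lower in knockout kidneys (11.7% of all genes were under that p), and 7 of 28 did not overlap between the groups, against 19.3% of genes. Igf2bp1, an RNA-binding protein that holds Igf2 and other messages, read 572, 614 and 626 in knockout replicates 1 to 3 and 811, 890.2 and 746 in normal replicates 1 to 3. Every knockout array lay below every normal one, at -0.43 (SE 0.09; limma adjusted p = 0.114), and its 3 further probe sets were also negative, at -0.28, -0.54 and -0.11. For the brightest the limma adjusted p was 0.586 with median scaling and 0.0732 with quantile normalization.

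Igfbp7, a secreted binding protein, read 102, 83.5 and 74.0 in knockout and 229.9, 135 and 142 in normal replicates, at -0.93 (SE 0.23; limma adjusted p = 0.164), and passed with median scaling (limma adjusted p = 0.0169). The kinase Akt1 read 755, 801 and 799 in knockout and 1142, 974 and 841 in normal replicates (-0.32, SE 0.11; limma adjusted p = 0.358), and without normal replicate 1 the difference was -0.21. The receptor Igf1r, which carries the growth signal of IGF2, read 756, 737 and 734 in knockout and 934, 931 and 779.9 in normal replicates by its brightest probe set (-0.24, SE 0.09; limma adjusted p = 0.392). Its 4 dimmer probe sets were at -0.14, -0.01, -0.34 and 0.04. With median scaling the limma adjusted p was 0.825 for Akt1 and 0.936 for Igf1r.

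**Figure D5:**
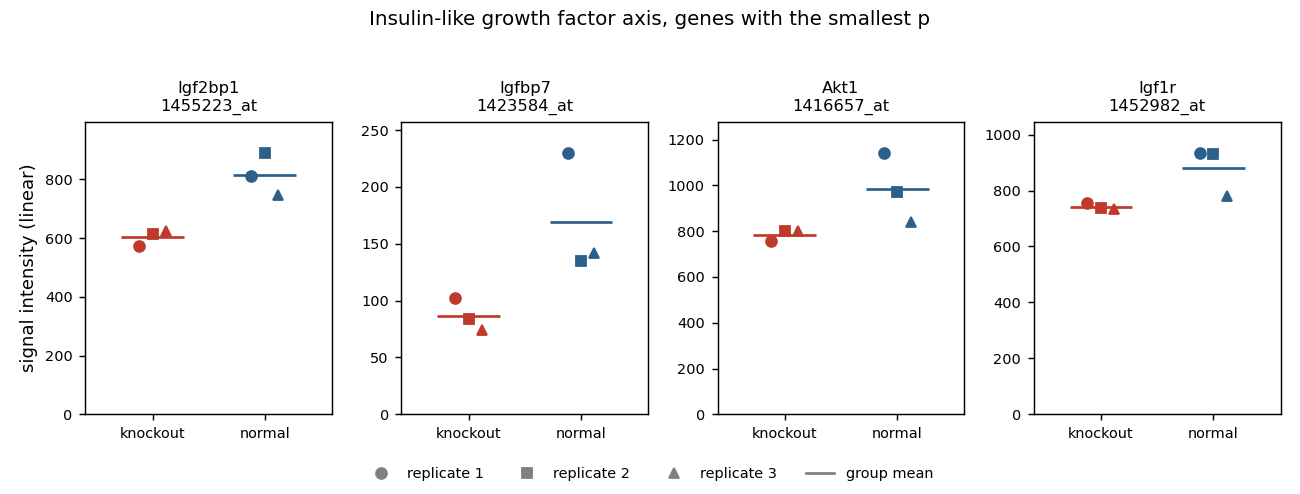
Linear signal intensity of the 4 insulin-like growth factor axis genes with the smallest p, with knockout arrays left of normal arrays, a marker shape for each replicate and a line at the group mean. For Igf2bp1, Igfbp7, Akt1 and Igf1r the 3 knockout arrays lie below the 3 normal arrays, and no gene passed an adjusted p of 0.05.

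The list of regulators of imprinted loci holds DNA methylation genes and others, among them Ctcf, Ezh2, Eed, Suz12, Rb1 and Hmga2. It gave 0 calls among 16 tested of 21 listed, against 0.602% of all genes, with 4 positive and 12 negative and a median of -0.03. At an unadjusted p under 0.05 there were 3, all with lower signals in knockout kidneys, against 11.7% of all genes. Dnmt1, the enzyme that copies DNA methylation at replication, read 1035, 1007 and 1092 in knockout replicates 1 to 3 and 1333, 1413 and 1131 in normal replicates 1 to 3. The groups did not overlap, at -0.30 (SE 0.10; limma adjusted p = 0.312, or 0.865 with median scaling), and its 2 further probe sets were at -0.20 and -0.17. Zfp57, a zinc finger protein that guards imprints, read 34.6, 26.6 and 27.1 in knockout and 97.6, 37.5 and 43.6 in normal replicates (-0.89, SE 0.36; limma adjusted p = 0.41). Without normal replicate 1, its highest array, the difference was -0.47. The demethylating enzyme gene Tet2 was at -0.51 (SE 0.21; limma adjusted p = 0.41), with its other probe set at 0.09, and Uhrf1, the partner of Dnmt1, at -0.18 (SE 0.11; limma adjusted p = 0.557), or -0.08 without normal replicate 2 and -0.12 without knockout replicate 2.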

How the data were processed

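Total RNA of whole E12.5 kidneys (1 µg a sample) was hybridised to 6 single-colour Affymetrix arrays. Each deposited value is a linear signal intensity of 1 probe set. MAS5 is named in the submitters' processing notes as the authors' tool, with its version and detection calls not given in the sources here. On every array the deposited intensity had a trimmed mean of about 150.0, so no further scaling was done. Before log2, 15 values of 0 were replaced by 1.7 (percentile 10 of the positive ones). The 64 control probe sets were left out, and probe sets with a mean log2 signal above the 40th percentile (a signal of 14.7) were tested, 27022 in all. Of 45037 probe sets 34945 had 1 symbol in the platform annotation, 932 several and 9160 none here, and symbols were updated through gene identifiers.

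The test between the groups was limma 3.58.1 in R 4.3.3 with an intensity-dependent variance prior, and p-values were adjusted by Benjamini-Hochberg over every tested probe set (threshold 0.05). The same fit was tested on simulated data. A gene is represented by its brightest tested probe set over all arrays, and SE is the moderated standard error. Ratios within an array used exact permutation of the arrays (scipy 1.17.1). The number of arrays limits the precision. Every member probe set is described, and the genes with the 4 smallest p of each other list are named; Mirg, Rian and the comparison of Meg3 probe sets were added after the values were seen. The nearest-profile rule also named H19, which could not be used. The members and lists were chosen with earlier results of these data known. Alternatives covered scaling, filters, a pseudocount of 16, variance models, a block for the replicate number, averaging the probe sets of a gene and leaving out arrays.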

Additional observations from a re-analysis of the deposited data

How the results depend on the processing

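No member gene passed by its brightest probe set under any of the 144 recomputed values (9 genes, 16 alternatives), with 0.322 the smallest limma adjusted p, and 18 of the 144 had the opposite sign. The count of probe sets past the threshold, 157, became 434 with median scaling (variance prior of 41.8 degrees of freedom, against 4.95) and 41 with no intensity trend. It ranged from 49 to 148 with each array left out (95 without normal replicate 3, and 58, 63 and 49 without knockout replicates 1, 2 and 3), and was 44 without both normal replicate 1 and knockout replicate 2, an alternative chosen after seeing the data for their chromaffin and muscle signals. Median scaling gave 1 member probe set (Meg3 1452905_at) and 1 insulin-like growth factor axis gene (Igfbp7) past the threshold; the other alternatives gave 0 of each. No other imprinted gene passed by its brightest probe set under any alternative, while the dimmer Rian probe sets 1427580_a_at and 1428055_at passed with median scaling. The number of member genes higher in the knockout, 5, was 3 to 7 with each array left out and 3 without both named arrays.

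Signs turned under quantile normalization for Peg3 (-0.00087), Mest (0.0028) and Plagl1 (0.0051), under median scaling for Plagl1 (0.0095), with a gene's probe sets averaged for Igf2 (0.067) and Grb10 (-0.080), and without both named arrays for Peg3 (-0.035), Grb10 (-0.015), Mirg (0.057) and Rian 1440001_at (-0.0034). With each array left out in turn, the log2 difference ran from -0.78 to 0.22 for Dlk1, -0.12 to 0.14 for Peg3, -0.069 to 0.040 for Plagl1, -0.10 to 0.19 for Igf2r, -0.59 to 0.27 for Meg3 1452183_a_at, -0.22 to 0.41 for Rian 1452899_at, -0.053 to 0.60 for Rian 1440001_at and -0.43 to 0.37 for Mirg. The cause of these turns was not tested. Cdkn1c (0.10 to 0.22) and the brightest Meg3 probe set (0.17 to 0.71) kept their sign in all 16.

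The replicate number as a block, the paired fit, gave 109 probe sets past the threshold and 0 members, and changed no other call. The numbers come from the titles alone, and deviations of same-numbered arrays correlated at 0.08, -0.11 and -0.20, so they are not taken as pairs. Without detection calls the lower limit of measurement is not known, and signals near 14.7 scatter widely.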
